A study of Rattus norvegicus with 2 samples.

Results

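The genes described here are 52 genes of mitosis and chromosome segregation, chosen by name with earlier results of these data known. They were chosen for their roles as cyclins, mitotic kinases, kinetochore and spindle proteins, condensin subunits and proteins of cytokinesis. Of these, 50 were found among the 22312 genes of the deposited table, 49 by their symbol and BUB3 by its symbol in another case; Cks2 and Hmmr matched no symbol. The series measured messenger RNA of skin from male Sprague-Dawley rats aged 4 weeks, in a model of skin fibrosis caused by radiation. The irradiated group is skin given 45 Gy once, with an electron beam of 6 MeV at 750 cGy per minute, and the non-irradiated group is skin from an area outside the beam. Each group is 1 library, so differences cannot be set against a spread between replicates, the condition was not tested, and statements describe these 2 libraries. When the skin was taken, how many rats gave it and whether their RNA was pooled is not in the labels. The irradiated sample is titled NC, an abbreviation with no explanation in the labels, and the other is titled Normal. The groups and every direction below rest on the source labels alone. Were NC to stand for an untreated control, against the source label, every higher would read lower and each ratio would turn over.

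In mitosis the kinase Cdk1, switched on by B-type cyclins, starts the condensation of chromosomes and the building of the spindle. Kinetochores join each chromosome to spindle microtubules, and the spindle checkpoint holds back the anaphase-promoting complex (APC/C) until all are attached. The complex then marks securin and cyclin B for destruction, separase cuts cohesin, and the central spindle places the furrow that parts the daughter cells. Most of these genes are transcribed mainly in late cell cycle, so that their RNA comes largely from dividing cells, which in skin lie in the basal epidermis, the hair matrix and the sebaceous gland, among other places.

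All 50 genes found had a higher FPKM in the irradiated library (FPKM counts fragments per length of transcript and per size of library). With the libraries rescaled by the median ratio of all genes, by a trimmed mean, or without the 100 highest genes, 49 of 50 stayed above 0 on the log2 scale, the exception being BUB3. Of the 16104 genes with any reads 71.2% had a higher FPKM in the irradiated library, as did 68% of the 9743 genes whose mean over both libraries reached 1 FPKM. The members' reads summed to 418 RPM (reads per 1000000 estimated reads) in the irradiated library (95% exact Poisson interval 406 to 430) and 168 RPM in the non-irradiated library (161 to 175). This is a ratio of 2.49 (95% exact Clopper-Pearson interval 2.37 to 2.63), on 4681 against 2120 estimated reads. Smc4 alone held 19.4% of the members' reads in irradiated skin and 36.1% in non-irradiated skin, and without it the ratio was 3.14 (2.95 to 3.35). Intervals cover counting error only. Since the members were chosen with earlier results of these data known, the shares over all genes are no test of them. In bulk tissue, more dividing cells and more RNA per dividing cell cannot be told apart.

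The size of single differences was described with log2((irradiated FPKM + 1)/(non-irradiated FPKM + 1)), a scale on which low genes differ by less than their true ratio, and with a rule of 2-fold for genes whose mean over both libraries was 1 FPKM or more. Of the 50 genes 34 passed that mean. Of these 16 were 2-fold or more higher, none was 2-fold or more lower, and 18 differed by less. A gene can pass this mean through its irradiated value alone, as did Spc25 (2.77 against 0.0670 FPKM) and Racgap1 (2.31 against 0.103 FPKM). The count of 16 is therefore a description only. Among all 9743 genes with such a mean, 9.7% were higher and 1.53% lower by this rule. Among the 7024 genes with a mean between 1 FPKM and that of the highest member, 11.7% were higher and 1.64% were lower. For the 34 genes the median log2 ratio was 0.95, against 0.21 over all 9743. Centred on that median, 10 members were at least 2-fold higher, against 6.92% of the 9743 genes, and the share of higher genes among all genes called was 71.7% in place of 86.4%. Without any filter 18 of the 50 genes were at least 2-fold higher and 0 lower, against 5.16% and 0.775% of 22312 genes (1151 and 173). Only 16104 of the 22312 had any reads, and the rest could not be called.

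Most members are scarce transcripts, which limits each single value. The 50 genes had a lowest, median and highest FPKM of 0.487, 2.20 and 18.0 in the irradiated library, and were listed at 0, 0.721 and 13.6 in the non-irradiated library. Estimated reads per gene had a median of 47.5 in irradiated skin and 16 in non-irradiated skin, and 15 genes had fewer than 10 reads in the non-irradiated library. The log2 ratio of scaled counts has no pseudocount. Its counting interval lay above 0 for 46 of the 50 genes and below 0 for none. Among the 16104 genes with any reads 38.1% lay above 0 and 10.9% below. Of the 50 genes Ccnb2, Plk1, BUB3 and Spc24 had intervals that included 0. The interval lay above 1, that is above 2-fold, for 26 of the 50, against 8.92% of the 16104 genes. These intervals keep the deposited scaling, and neither count was redone with rescaled libraries. The trimmed mean over all genes was 0.33 on the log2 scale. Above 0 but below 0.33 lay the lower ends of Ccna2 (0.20), Foxm1 (0.14), Birc5 (0.32), Bub1 (0.26), Espl1 (0.14) and Smc4 (0.26).

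**Figure D1:**
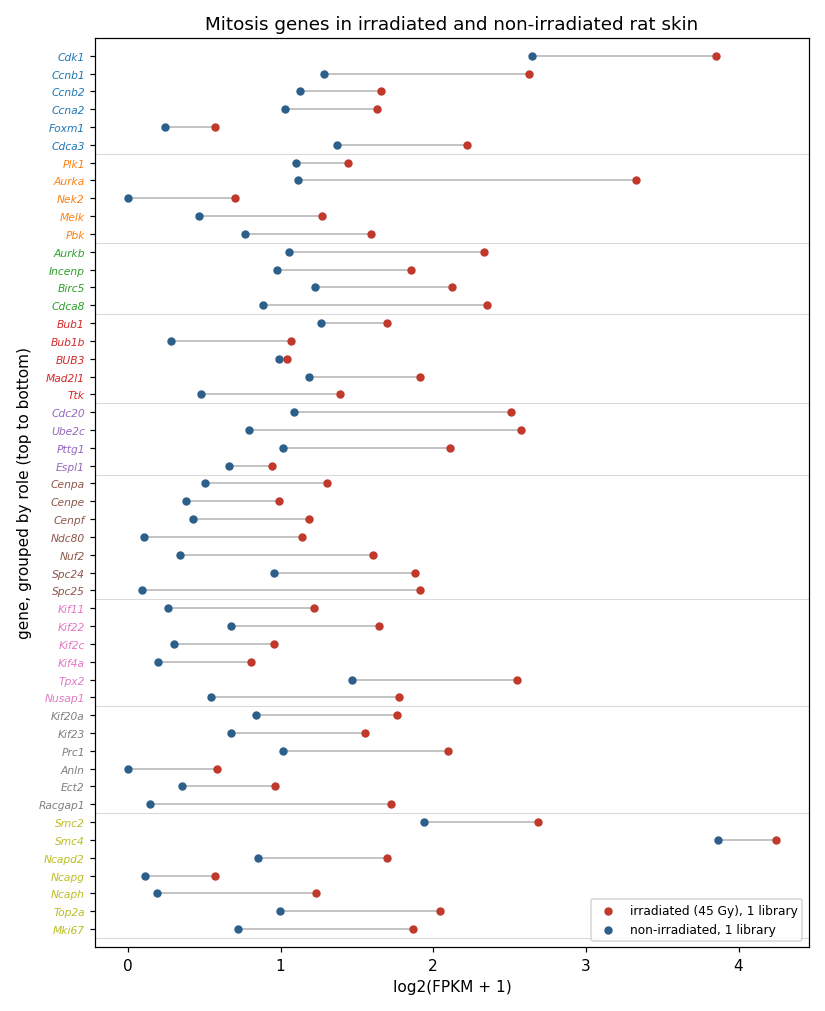
Level of the 50 genes in the 2 libraries, as log2(FPKM + 1), with 1 point per library and the genes grouped by role and coloured by it (Cdk1 and cyclins at the top, condensin and chromosome genes at the bottom). Every irradiated point lies to the right of its non-irradiated point, with the widest gap at Aurka and nearly none at BUB3.

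The members share features of their promoters that the choice by name did not use. RefSeq promoter windows (build GRCr8, 250 bases before to 50 after the transcript start, the first entry of each gene) were at hand for 44 of the 52 genes, among them Cks2 and Hmmr. They were searched on both strands for TTTGAA, the core of the cell cycle genes homology region (CHR), through which the DREAM and MuvB complexes act in human and mouse cells, and for the CCAAT box, bound by NF-Y. TTTGAA stood in 31 of 44 windows (70.5%), against 15.5% of 14988 genes of the table with an entry and 18.1% of all 27457 genes with an entry. CCAAT stood in 34 of 44 windows (77.3%), against 37.8% of the genes of the table, and both motifs in 26 windows (59.1%), against 6.36%. Aurka, Bub1, Kif2c, Melk and Ncaph held neither. The members that were found in the table with TTTGAA had a median log2 ratio of 0.88 (29 genes, counted without a filter), and those without it 0.85 (13 genes). A match is a description of the letters and not of a bound site.

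The windows of 3 genes are shown whole, those of Spc25 and Cdc20, which hold both motifs, and of Bub3, the member with the smallest ratio, which holds CCAAT boxes without TTTGAA; capitals mark the motifs on either strand. Spc25 is at chr3:74396669-74396968 on the minus strand, Cdc20 at chr5:137255750-137256049 on the minus strand and Bub3 at chr1:195760282-195760581 on the plus strand.
Spc25: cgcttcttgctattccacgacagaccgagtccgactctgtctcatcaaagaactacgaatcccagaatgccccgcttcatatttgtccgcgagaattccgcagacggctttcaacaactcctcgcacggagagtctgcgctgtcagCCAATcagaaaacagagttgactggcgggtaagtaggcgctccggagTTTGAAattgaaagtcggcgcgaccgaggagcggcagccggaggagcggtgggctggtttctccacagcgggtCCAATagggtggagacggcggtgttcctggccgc
Cdc20: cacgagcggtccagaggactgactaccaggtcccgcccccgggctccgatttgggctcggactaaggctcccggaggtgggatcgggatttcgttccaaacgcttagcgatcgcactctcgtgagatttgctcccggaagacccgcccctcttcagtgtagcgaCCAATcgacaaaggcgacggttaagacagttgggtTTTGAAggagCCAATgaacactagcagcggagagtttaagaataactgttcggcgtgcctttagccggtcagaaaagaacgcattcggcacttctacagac
Bub3: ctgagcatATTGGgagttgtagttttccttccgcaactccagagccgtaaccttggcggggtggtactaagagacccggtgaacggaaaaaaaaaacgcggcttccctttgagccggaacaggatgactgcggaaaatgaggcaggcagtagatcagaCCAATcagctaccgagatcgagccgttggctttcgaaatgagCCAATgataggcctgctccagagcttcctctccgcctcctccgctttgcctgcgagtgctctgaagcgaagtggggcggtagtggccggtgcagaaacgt

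For 7 further members of different roles, 30 bases around the TTTGAA match nearest the 3′ end of the window are shown, so that the bases beside it can be compared. Capitals mark the match, and Top2a and Pttg1 carry it on the reverse strand, as TTCAAA. Counted from the transcript start, whose first base is 1 and is preceded by -1, the match begins at -16 in Cdk1, -43 in Ccnb2, -22 in Top2a, -29 in Pttg1, -79 in Kif23, -83 in Espl1 and -18 in Prc1. On the plus strand of GRCr8 lie the stretches of Cdk1 (chr20:19265265-19265294), Espl1 (chr7:135302621-135302650) and Prc1 (chr1:143659451-143659480), and on the minus strand those of Ccnb2 (chr8:79981684-79981713), Top2a (chr10:84473098-84473127), Pttg1 (chr10:28406338-28406367) and Kif23 (chr8:71320646-71320675).
Cdk1: taccgcggtgagTTTGAAactgctggcact
Ccnb2: agcggcgcggtaTTTGAAtcgcggacccag
Top2a: gctagatgaatgTTCAAAtgaaactaggga
Pttg1: cgcgagttggaaTTCAAActgcggtgcgcc
Kif23: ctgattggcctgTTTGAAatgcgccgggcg
Espl1: ccactagagataTTTGAAaggaggtgctgg
Prc1: cctccggctcggTTTGAAttccgcggggtc

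Matches of TTTGAA lay near the transcript start in the members. In the 50 bases before the start 14 of 44 member windows held a match (31.8%), against 2.30% of the genes of the table, and in the 50 bases before those 9 did (20.5%), against 2.66%. From 250 to 200 bases before the start 1 member window held a match (2.27%), against 3.89%. CCAAT boxes were most frequent from 100 to 50 bases before the start, in 26 of 44 member windows (59.1%) and 13.4% of the genes of the table.

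**Figure D2:**
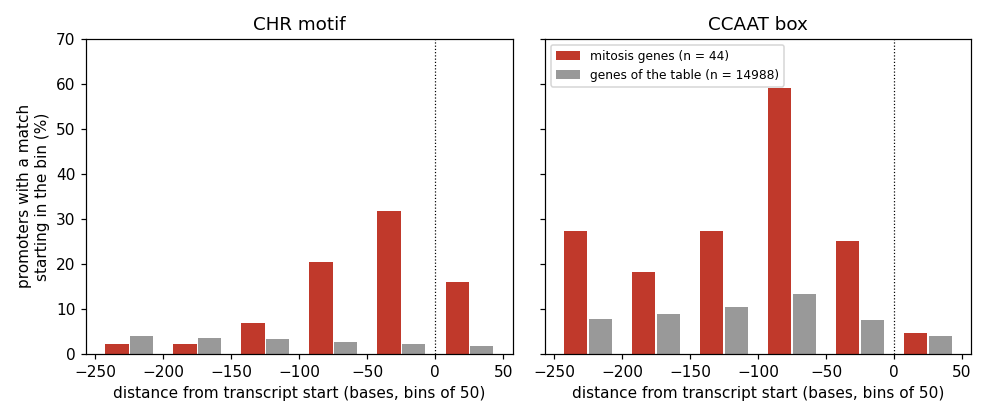
Share of promoters, in percent, with a match starting in each bin of 50 bases (x axis, distance from the transcript start), for TTTGAA (left) and CCAAT (right), in 44 mitosis genes and 14988 genes of the table. TTTGAA is most frequent in the members in the 50 bases before the start (31.8%), and CCAAT from 100 to 50 bases before it (59.1%).

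The genes of mitotic entry were higher in the irradiated library, with Ccnb1 furthest apart. Of 6 found, 5 passed the mean of 1 FPKM and 2 were at least 2-fold higher. Cdk1, the kinase that drives entry into mitosis, stood at 13.5 FPKM in irradiated skin and 5.27 FPKM in non-irradiated skin, a log2 ratio of 1.20; the interval of its scaled counts was 0.94 to 1.75. Its partner Ccnb1 (cyclin B1) stood at 5.17 against 1.43 FPKM, with a log2 ratio of 1.34 and an interval of 1.19 to 2.54. The second B-type cyclin gene, Ccnb2, stood at 2.16 against 1.19 FPKM on 26 against 16 reads, and its interval of -0.10 to 1.85 included 0. Thus both cyclin B genes were higher in FPKM, but for Ccnb2 the difference was within counting error. Ccna2 (cyclin A2, which acts from S phase to early mitosis) stood at 2.10 against 1.04 FPKM, and Cdca3, which helps to degrade the Cdk1 inhibitor Wee1, at 3.67 against 1.59 FPKM. Ccna2 overlaps Exosc9 on the opposite strand, and the sources do not say if strand was used in counting. Foxm1, the transcription factor of late cell cycle genes, was below the mean of 1 FPKM with 19 reads in irradiated skin and 8 in non-irradiated skin.

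Aurka had the largest log2 ratio of the 50 genes on the FPKM + 1 scale, while in scaled counts the scarcer Spc25, Racgap1, Ndc80 and Ncaph had larger ones. This gene of Aurora kinase A, which matures centrosomes and builds the spindle poles (ENSRNOG00000004479, chromosome 3, 176439963 to 176453986, minus strand, in the authors' build, which is not given in the sources used here), stood at 9.05 FPKM in irradiated skin and 1.16 FPKM in non-irradiated skin. Its log2 ratio was 2.22, on 245 against 35 reads, and the interval of its scaled counts was 2.44 to 3.51. Plk1, the polo-like kinase that acts beside Aurka at the poles, stood at 1.71 against 1.15 FPKM, on 43 against 32 reads. Its interval of -0.12 to 1.28 included 0 and did not overlap that of Aurka. Pbk, a kinase of dividing cells, stood at 2.01 against 0.706 FPKM. The remaining kinases were below the mean of 1 FPKM. Melk, a kinase found in proliferating progenitor cells, had 47 against 14 reads. Nek2, which separates the centrosomes, had 9 reads in the irradiated library and none in the other. With 3 reads put in place of the 0 its scaled count was 3.33-fold higher, and its log2 counting interval began at 1.13.

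All 4 genes of the chromosomal passenger complex, which corrects faulty attachments and later directs cytokinesis, passed the mean of 1 FPKM. The kinase of the complex, Aurkb, stood at 4.04 FPKM in irradiated skin and 1.08 FPKM in non-irradiated skin (log2 1.28, interval 1.20 to 2.63). Cdca8 (borealin), which helps to target the complex to centromeres, stood at 4.11 against 0.848 FPKM (log2 1.47, interval 1.34 to 3.31). These 2 genes were at least 2-fold higher, while the other 2 lay within 2-fold. Birc5 (survivin) stood at 3.36 against 1.34 FPKM and the scaffold Incenp at 2.62 against 0.970 FPKM. The locus given for Incenp also spans 6 other rows of the table, among them Fth1 with 1820 against 2052 FPKM on the opposite strand and Fads2 with 3.61 against 0.560 FPKM on the same strand, so its value is uncertain. The summed reads of the complex had a ratio of 3.27.

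Of the 5 spindle checkpoint genes none was at least 2-fold higher by the FPKM rule. Ttk (the kinase Mps1, at the head of the checkpoint) stood at 1.62 FPKM in irradiated skin and 0.396 FPKM in non-irradiated skin, and its interval of 1.18 to 2.95 in scaled counts lay above 2-fold. Mad2l1, which binds and holds Cdc20, stood at 2.77 against 1.27 FPKM (log2 0.73, interval 0.34 to 1.93). Bub1, a kinase at kinetochores, stood at 2.25 against 1.41 FPKM. Bub1b (BubR1), its relative that takes part in the inhibitory complex, was below the mean of 1 FPKM with 41 against 9 reads. BUB3, their shared binding partner, was nearly equal at 1.06 and 0.990 FPKM, on 23 against 24 reads. Its log2 ratio of 0.05 turned to -0.16 when centred on the median of all genes, and its interval was -0.80 to 0.98. The interval of BUB3 did not overlap those of Bub1b and Ttk.

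Genes that act on and through the APC/C at anaphase were higher as a group, and all 3 that passed the mean of 1 FPKM were at least 2-fold higher. Of these 3 Ube2c was below 1 FPKM in non-irradiated skin and passed through its irradiated value. Cdc20, the activator of the complex that the checkpoint blocks, stood at 4.68 FPKM in irradiated skin and 1.13 FPKM in non-irradiated skin (log2 1.42, interval 1.39 to 2.74). Ube2c, the ubiquitin-conjugating enzyme that starts chains on its substrates, stood at 4.96 against 0.736 FPKM (log2 1.78, interval 1.47 to 4.27), on 36 against 6 reads. The locus of Ube2c overlaps that of the muscle gene Tnnc2 on the opposite strand, which stood at 74216 against 84551 FPKM. It also overlaps Dnttip1 (12.9 against 8.65 FPKM) and Snx21 (4.28 against 6.56 FPKM) on its own strand, so the value of Ube2c is uncertain. Pttg1 (securin), the inhibitor of separase, stood at 3.32 against 1.02 FPKM. Espl1 (separase) was below the mean of 1 FPKM with 77 against 54 reads, and its interval was 0.14 to 1.19. The interval of Espl1 lay below those of Cdc20 and Ube2c and overlapped that of Pttg1.

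The kinetochore genes had the highest ratio of summed reads among the 9 role groups, at 4.50 (95% Clopper-Pearson interval 3.59 to 5.68). The interval overlapped those of the spindle proteins, cytokinesis, the passenger complex and the mitotic kinases. The kinases had a ratio of 4.48, which was 2.55 without Aurka (385 against 97 reads with it, 140 against 62 without it). The Ndc80 complex is the part of the kinetochore that grips microtubules, and all 4 of its subunits are members. Spc25 (ENSRNOG00000006731, chromosome 3, 62050002 to 62063264, minus strand) stood at 2.77 FPKM in irradiated skin and 0.0670 FPKM in non-irradiated skin (log2 1.82). It rested on 37 against 1 reads, a ratio of 41.0 in scaled counts with a log2 interval of 2.79 to 10.7. Nuf2 stood at 2.05 against 0.269 FPKM, on 41 against 6 reads. Ndc80 was below the mean of 1 FPKM with 29 against 2 reads. Spc24 stood at 2.68 against 0.942 FPKM, but on 10 against 4 reads, with an interval of -0.32 to 3.60. So 3 of the 4 subunits had intervals above 2-fold, and the depth of Spc24 could not show a difference. The remaining 3 kinetochore genes were below the mean of 1 FPKM. Cenpf, a large protein of the outer kinetochore, had 158 against 47 reads. Cenpe, the kinesin that moves chromosomes to the spindle equator, had 89 against 30 reads, and Cenpa, the histone H3 variant that marks centromeres, 22 against 7 reads.

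Spindle motors and microtubule proteins were higher as well, and the counting intervals of all 6 found lay above 0. Tpx2, which activates Aurora kinase A and nucleates microtubules near chromosomes, stood at 4.86 FPKM in irradiated skin and 1.76 FPKM in non-irradiated skin (log2 1.08, interval 1.06 to 1.87). Aurka itself had a higher interval, of 2.44 to 3.51. Nusap1, which bundles microtubules, stood at 2.42 against 0.461 FPKM (log2 1.23, interval 1.54 to 3.33). Kif22, a kinesin that pushes chromosome arms, stood at 2.12 against 0.595 FPKM and lay within 2-fold on the FPKM scale. The other 3 kinesins were below the mean of 1 FPKM. Kif11 (Eg5), which pushes the spindle poles apart, had 72 against 12 reads, Kif4a, a motor of chromosome arms, 41 against 9, and Kif2c, which takes microtubule ends apart, 29 against 8.

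The cytokinesis genes gave intervals above 0 for all 6. Racgap1 (ENSRNOG00000049033, chromosome 7, 138713514 to 138728274, minus strand), which with Kif23 forms centralspindlin, stood at 2.31 FPKM in irradiated skin and 0.103 FPKM in non-irradiated skin (log2 1.58). It rested on 40 against 2 reads, with an interval of 2.52 to 7.57. Kif23 itself stood at 1.93 against 0.595 FPKM, on 73 against 25 reads. The interval of Kif23 was 1.02 to 2.41 and did not overlap that of its partner Racgap1. Prc1, which bundles the microtubules of the central spindle, stood at 3.27 against 1.02 FPKM (log2 1.08, interval 1.13 to 2.24). Kif20a, a kinesin of the same structure, stood at 2.40 against 0.789 FPKM; Cdc23 overlaps it on the opposite strand. The last 2 genes were below the mean of 1 FPKM. Ect2, the exchange factor that activates RhoA at the furrow, had 43 against 14 reads. Anln (anillin), a scaffold of the furrow, had 19 reads in irradiated skin and none in non-irradiated skin. With 3 reads in place of the 0 its scaled count was 7.02-fold higher, and its log2 counting interval began at 2.37.

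Condensin, topoisomerase and chromosome surface genes had the lowest ratio of summed reads of the 9 groups, at 1.86. That place rests on Smc4: without it the ratio was 2.83, above those of the checkpoint genes (2.08) and of Cdk1 and the cyclins (2.57). Smc4 (ENSRNOG00000010274, chromosome 2, 184962125 to 184990525, plus strand), an ATPase subunit of both condensins, stood at 18.0 FPKM in irradiated skin and 13.6 FPKM in non-irradiated skin (log2 0.38, interval 0.26 to 0.54, on 910 against 765 reads). Smc4 had the highest FPKM of the members in both libraries. Its log2 ratio was 0.17 when centred on the median of all genes and 0.066 with a trimmed-mean scaling. Its partner Smc2 stood at 5.45 against 2.84 FPKM (log2 0.75, interval 0.68 to 1.20). Of the subunits that occur in condensin I alone, Ncapd2 stood at 2.24 against 0.809 FPKM with an interval of 0.98 to 1.97, and Ncaph and Ncapg, both below the mean of 1 FPKM, had 34 against 4 and 16 against 3 reads. In scaled counts the intervals of these 3 subunits lay above that of Smc4, while those of Ncapd2 and Ncapg overlapped that of Smc2. Top2a, the topoisomerase that untangles sister chromatids, stood at 3.12 against 0.992 FPKM (log2 1.05). Mki67, the coat protein of mitotic chromosomes known as a proliferation marker, stood at 2.65 against 0.648 FPKM (log2 1.15, interval 1.68 to 2.39), on 317 against 86 reads.

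**Figure D3:**
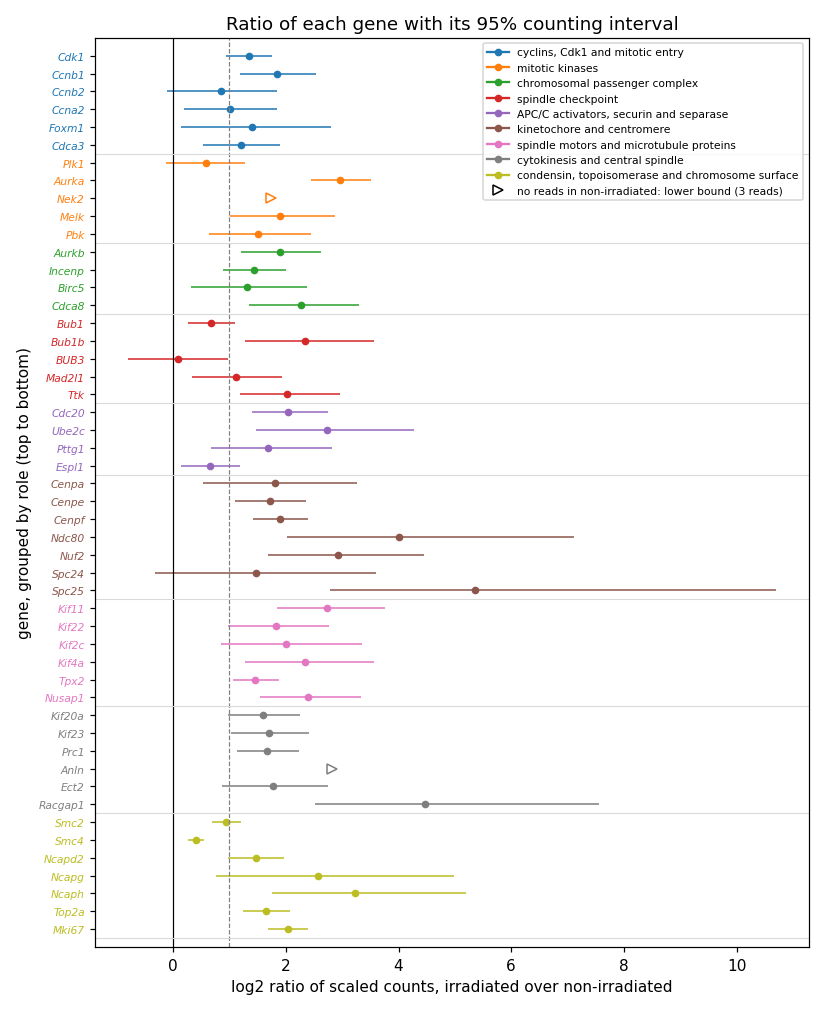
Log2 ratio of scaled counts, irradiated over non-irradiated, for the 50 genes in the same order, with 95% Clopper-Pearson counting intervals as bars. The dashed line marks 2-fold. Open triangles, labelled lower bound, are ratios with 3 reads in place of 0 and not ends of a counting interval. Intervals of Ccnb2, Plk1, BUB3 and Spc24 cross 0, and that of Smc4 (0.26 to 0.54) is the narrowest.

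A further list of 103 genes of mitosis and cohesion, of which 101 were found, had a smaller median ratio than the members. Of 52 that passed the mean of 1 FPKM, 11 were 2-fold or more higher and none lower, and 41 differed by less. Their median log2 ratio was 0.30. Of all 9743 genes with such a mean, 9.7% were higher and 1.53% lower by this rule. In summed reads the list had 1443 RPM in irradiated skin and 1164 RPM in non-irradiated skin, a ratio of 1.24. Among the genes that passed, the higher ones lay in 3 of the 7 groups of the list. Without the filter 16 of 101 were at least 2-fold higher, against 5.16% of 22312 genes, of which only 16104 had any reads. Among these 16 were 1 gene of the Cdk1 regulators, Pkmyt1, and 1 of the MuvB group, Lin52. Lin52 rested on 3 against 0 reads, and its counting interval, which began at -1.13, included 0. Among kinetochore genes 6 of 11 were at least 2-fold higher, such as Cenpm at 6.26 against 1.34 FPKM and Knstrn at 4.54 against 0.848 FPKM, while Zwint stood at 22.8 against 15.4 FPKM. All 3 genes of the Ska complex, which couples kinetochores to microtubules, were among the 6, with log2 ratios of 1.28 for Ska1, 1.12 for Ska2 and 1.02 for Ska3. Cenpk, below the mean of 1 FPKM, went the other way on 6 against 21 reads. Among other spindle genes 4 of 7 were at least 2-fold higher, such as Tacc3, a partner of Aurora kinase A at the spindle, at 3.49 against 0.465 FPKM and the kinesin Kifc1 at 3.62 against 0.786 FPKM. Numa1, which also serves in interphase nuclei, stood at 14.3 against 11.7 FPKM. It held 597 of the 1708 reads of the spindle list in irradiated skin and 536 of 889 in non-irradiated skin. The list's ratio of summed reads, 2.17, was not redone without Numa1. The filter uses the mean of both libraries, so a gene can pass it through its irradiated value alone. Without the filter 7 of 32 kinetochore genes were at least 2-fold higher (median log2 ratio 0.60), and 6 of 20 other spindle genes (median 0.73).

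In the other groups fewer genes were beyond 2-fold. Of 15 genes of the APC/C and its inhibitor, Fbxo5 (Emi1, the inhibitor) was the single one at least 2-fold higher, at 2.04 FPKM in irradiated skin and 0.459 FPKM in non-irradiated skin. The most abundant subunit gene, Anapc13, stood at 183 against 202 FPKM, and the list's median was 0.10. Cdc23 had a log2 ratio of 0.97 and overlaps the member Kif20a. The 8 cohesin genes that passed had a median of 0.11, with Smc3 at 18.0 against 14.5 FPKM and Smc1a at 12.0 against 8.48 FPKM. Of condensin II, Ncaph2 was the single gene that passed and was nearly equal at 9.66 and 9.70 FPKM. The other 2 condensin II genes, below that mean, had more reads in irradiated skin, with 64 against 15 for Ncapd3 and 32 against 17 for Ncapg2, both with intervals above 0. The genes that regulate Cdk1 had a median of 0.30 and none of 7 beyond 2-fold, with Cdc25b, a phosphatase that activates Cdk1, at 2.63 against 0.964 FPKM. Counted without the filter, 10 of these 14 genes had intervals above 0, against 38.1% of the 16104 genes with any reads. Among the 10 was Pkmyt1, a kinase that inhibits Cdk1, on 37 against 5 reads. Of the MuvB complex and its partner B-MYB, 3 of 6 genes passed with a median of 0.24. Mybl2 (B-MYB) was below the mean of 1 FPKM with 36 against 9 reads.

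Markers of the epithelial tissues that hold dividing cells were higher in the same library. The 8 basal keratinocyte markers summed to 1837 RPM in irradiated skin and 159 RPM in non-irradiated skin, a ratio of 11.5; 6 of 7 that passed were at least 2-fold higher and none was at 0. The ratio was 3.45 for 8 hair follicle markers (226 against 65.5 RPM), of which all 7 that passed were at least 2-fold higher, and 6.09 for 6 sebaceous gland markers (522 against 85.7 RPM), all at least 2-fold higher. The 5 differentiating keratinocyte markers found had a ratio of 12.9 (142 against 11.0 RPM). Of all 9743 genes with a mean of 1 FPKM or more, 9.7% were at least 2-fold higher. The members' ratio was 2.49, or 3.14 without Smc4, whose interval of 2.95 to 3.35 overlapped that of the hair follicle markers (3.19 to 3.74). The role groups of the kinetochore, mitotic kinases, cytokinesis and spindle had ratios above that of the hair follicle markers. The interval of each of these groups overlapped that of the hair follicle markers. Without Aurka the mitotic kinases had a lower ratio than those markers, of 2.55 (1.88 to 3.50), with an interval that also overlapped. Both libraries, labelled skin, also held much muscle RNA: the 8 muscle fibre markers took 242040 RPM in irradiated skin and 274142 RPM in non-irradiated skin, a ratio of 0.88. Of the 8 muscle fibre markers 3 had intervals above 0 and 5 below 0, with log2 ratios from 1.37 for Myh2 to -0.84 for Ckm. Fibroblast markers had a ratio of 0.74 and endothelial markers 0.62. Macrophage markers had a ratio of 0.92, with none of 5 beyond 2-fold. Of 5 genes of muscle satellite cells and myoblasts, Pax7 was listed at 0 in both libraries, and the list's ratio was 1.16. Most reads of that list were of Myod1, with 771 against 616. Myog went the other way on 131 against 253 reads, with an interval of -1.12 to -0.49. Of 7 lymphocyte markers Cd3d, Ms4a1 and Cd79a were listed at 0 in both libraries, and the list had 57 reads in each. Of these reads Cd4 alone gave 50 in irradiated skin and 49 in non-irradiated skin. Erythroid markers had a ratio of 0.68. The part of these tissue differences in the result for the mitosis genes was not tested.

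**Figure D4:**
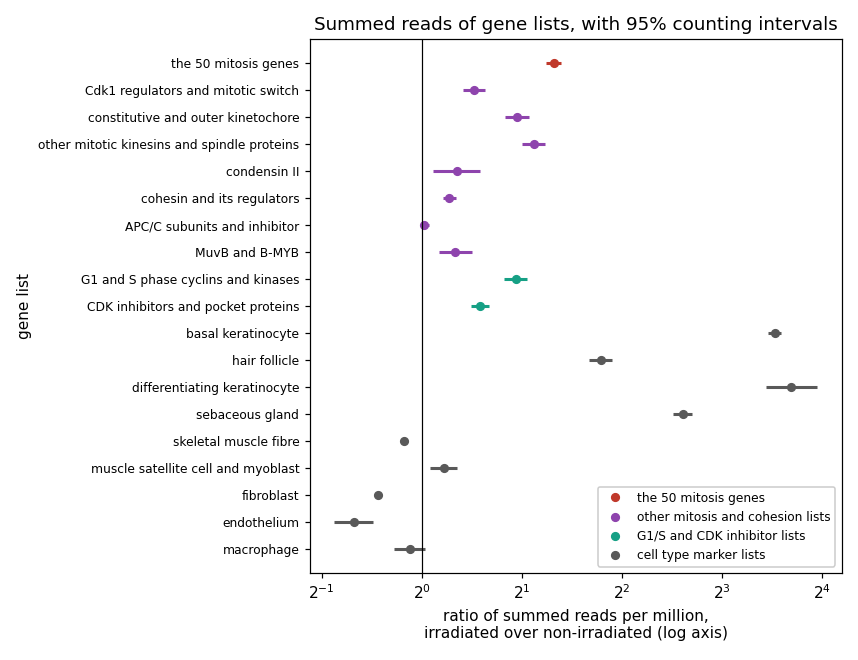
Ratio of summed reads (RPM), irradiated over non-irradiated, for the 50 mitosis genes, other cell cycle lists and cell type markers, with 95% counting intervals as bars on a log axis. As drawn, the members (2.49) lie above all other mitosis lists and below the keratinocyte (11.5 and 12.9) and sebaceous gland (6.09) lists. The hair follicle list is at 3.45, and the members without Smc4, not drawn, are at 3.14. The nearest mitosis list, of other spindle proteins (2.17), was not redone without Numa1, which held 536 of its 889 reads in non-irradiated skin. The order of these 2 lists can rest on that gene.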

How the data were processed

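RNA of 1 irradiated and 1 non-irradiated skin library was extracted with TRIzol, depleted of ribosomal RNA and made into stranded libraries, per the labels' protocols. Per the submitters' processing notes the tools included HISAT2 2.0.4, cutadapt 1.9.3, Cuffdiff and Cufflinks; the build is not given in the sources used here. FPKM values were made by the authors, per the file headers. The count columns, as deposited, are a scaled signal and not raw counts: 97.7% and 98.0% of values above 0 in the irradiated and non-irradiated library were whole multiples of 1 step (1.05 and 0.951), within 0.01 of a read plus 1e-05 per read. Dividing by the step gave estimated reads, 11197474 and 12649578 in all. No count model was run. The deposited length column holds the span of the locus in bases and was used for nothing else. Locus starts were raised by 1 base, since end minus start was a multiple of 3 for 90.3% of olfactory receptor genes, which are mostly a single coding exon.

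Rows of the same symbol were summed. Genes were kept whose mean was 1 FPKM or more, the pseudocount was 1 FPKM, and the rule was 2-fold. Intervals are 95% exact Clopper-Pearson or Poisson intervals; PCR copies are not independent molecules, so the intervals cover counting error alone and can be too narrow. Summed reads are per 1000000 estimated reads (RPM); ratios of single genes use scaled counts. Where a library had no reads, 3 reads stood in for it. Reads shared by near-identical copies or overlapping genes make values uncertain. Members and lists were chosen with earlier results of these data known. Every member is named, below the mean of 1 FPKM by its reads. Of each other list up to 3 genes are named, the 2 with the largest absolute ratio and the 1 with the highest mean. The Ska genes, Cenpk, Mybl2, Lin52, Pkmyt1, Ncapd3, Ncapg2, Cdk2, Cdk6, E2f1, Ccnd3, Ccne1, Ccne2 and Cdkn2b were named after their values were seen. A lymphocyte marker and a promoter stretch are not reported here. Steps were tested on simulated data. Python 3.11.15, pandas 2.3.3 and scipy 1.17.1 were used.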

Additional observations from a re-analysis of the deposited data

How the results depend on the processing

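No paired analysis was possible because each group has 1 library, and leaving out a library leaves no comparison. No member was at least 2-fold lower under any of the 8 alternatives. The count of members at least 2-fold higher, 16 as reported, was 27 with a pseudocount of 0.1 FPKM, 25 with 0.5 FPKM, 2 with a mean of at least 5 FPKM (where 3 members passed), and 10 both when centred on the median of all genes and with a trimmed-mean scaling. In the same order 9.7% of all genes tested were at least 2-fold higher as reported, then 16%, 12.6%, 5.94%, 6.92% and 6.39%. The members' median of 0.95 was 1.52, 1.24, 1.20, 0.74 and 0.73 in that order, 0.86 without the 100 highest genes, and 1.30 on scaled counts in RPM. The smaller pseudocounts shrink low genes less, and the 3 scalings move the median of all genes, to 0 by centring, -0.07 by the trimmed mean and 0.10 without the 100 highest genes. Of the further mitosis genes 0 were at least 2-fold higher with a mean of at least 5 FPKM and 6 under centring and under the trimmed mean. Their median of 0.30 was 0.33 with a pseudocount of 0.1 FPKM, 0.38 with no filter, 0.16 with a mean of at least 5 FPKM, 0.086 centred, 0.012 with the trimmed mean, 0.18 without the 100 highest genes and 0.35 on scaled counts. The ratio of the members' summed reads was 2.22 when the 100 genes with most reads were left out of the total (2.22 also without muscle fibre markers, all 8 of which are among them) and 3.14 without Smc4, an alternative chosen after seeing the data. BUB3 had a log2 ratio of -0.16 centred, -0.11 with the trimmed mean and -0.02 without the 100 highest genes. Depth limits single members, 15 of which had fewer than 10 reads in the non-irradiated library.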

Other observations

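Genes of the G1 and S phase were measured beside the mitosis genes. Of 9 such cyclin and kinase genes 5 passed the mean of 1 FPKM and 3 were at least 2-fold higher in the irradiated library, namely Ccnd1, Ccnd2 and Cdk2. Of all 9743 genes with such a mean, 9.7% were higher by this rule. Ccnd1 (cyclin D1) stood at 14.5 FPKM in irradiated skin and 5.37 FPKM in non-irradiated skin, and Cdk2 at 2.99 against 0.823 FPKM. Ccnd2 (cyclin D2) had a log2 ratio of 1.92, on 130 against 28 reads. Ccnd3 (cyclin D3) went the other way at 6.91 against 7.82 FPKM, with an interval of -0.51 to 0.13 that included 0. Cdk4 stood at 52.0 against 32.8 FPKM. The cyclin E genes Ccne1 and Ccne2 were below the mean of 1 FPKM, with 19 against 15 and 33 against 39 reads, and both intervals included 0. E2f1 and Cdk6, also below that mean, had 31 against 8 and 12 against 3 reads, with intervals above 0. Of the 9 intervals 6 lay above 0 and 3 included 0. In summed reads the list had a ratio of 1.92.

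Of 9 genes of CDK inhibitors and pocket proteins, 8 passed the mean of 1 FPKM, and Cdkn1a was the single one beyond 2-fold. This gene of p21, which halts the cell cycle after DNA damage, stood at 57.9 FPKM in irradiated skin and 17.7 FPKM in non-irradiated skin. In the same pair of libraries the genes whose products it inhibits were higher as well, Cdk1 at a log2 ratio of 1.20 and Cdk2 at 1.13. Cdkn1c (p57), an inhibitor of resting and differentiating cells, stood lower at 5.86 against 12.4 FPKM, a log2 ratio of -0.96. Cdkn2b, another CDK inhibitor, stood at 4.86 against 2.08 FPKM, a log2 ratio of 0.93 with an interval of 0.76 to 1.69. Of the 9 counting intervals of the list 2 lay above 0, 1 lay below 0 and 6 included 0.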
